A study of Prunus persica with 16 samples.

Results

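A set of 45 peach genes had a higher group median in buds of hydrogen cyanamide (HC) trees than in buds of untreated trees at 3 days after spraying. At 7 days the medians of the 2 treatments lay close together. The 45 members came from the 26873 genes of the deposited expression matrix. A member had a mean of 20 or more FPKM (fragments counted relative to transcript length and to the mapped fragments of the library) over the 16 libraries. Its group median of log2(FPKM + 1) was at least 2 higher in HC than in control buds at 3 days, and within 0.5 of control at 7 days. Prupe.1G531100 to Prupe.1G531700, a run of 7 neighbouring identifiers, was left out by the rule. Of 5729 genes that met the level condition, 155 passed the 3-day condition. By the 7-day condition 45 of these were members, while 92 were still more than 0.5 higher and 18 more than 0.5 lower in HC buds. The members were thus chosen by these measured treatment differences at 3 and 7 days, which are given below as descriptions. Calls from a fit over all genes are also counted for the members, and are no test of these differences.

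Peach flower and leaf buds pass the winter dormant and open after enough chilling, followed by warmth. HC is sprayed on dormant fruit trees to bring bud break forward, mostly where winters give too little chill. In grape buds it is known to lower catalase, an enzyme that removes hydrogen peroxide. The files pair no identifier with a gene name, and none was found among the 26412 genes of the RefSeq table at hand, so the members are given by identifier and without roles.

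All trees were the low-chill cultivar TropicBeauty on Floridaguard rootstock, 5 years old, in 1 orchard, and had met 11 of 150 chilling hours at spraying. The HC groups came from 4 trees sprayed with 1% (v/v) HC and 0.15% (v/v) non-ionic surfactant, 1 tree per replicate, with buds taken at 3 and at 7 days. The control groups came from another 4 trees left without HC, at the same times. Each of the 4 groups held 4 libraries made with an mRNA protocol. Surfactant is mentioned with the HC spray and not for the control trees, which means that the effects of the pair cannot be told apart. They name the tissue as buds with no split into flower and leaf buds, and no marker check was possible without gene names. In whole buds, fewer cells of a type and less RNA per cell cannot be told apart.

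Depth was uneven. Estimated reads in genes, in units of 1e6 reads, ran from 0.555 to 22.0 per library. The group medians in these units were 10.8 (HC) and 7.26 (control) at 3 days, and 3.47 (HC) and 2.83 (control) at 7 days. Control replicate 2 of 3 days stood apart, with 8667 genes above 0 at 1.42 of these units, against 10356 genes in the shallowest library. It bears on the members directly: 26 of 45 (57.8%) were listed at 0 in it, against 919 of the 5729 genes at the required level (16.0%). Without this library the rule found 36 genes, of which 31 were among the 45. The limma fit described below called 21 members higher in HC buds at 3 days without it and 22 with it. The 45 had been chosen by this contrast with the library included, so these counts do not test its influence.

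The middle member had a group median of 76.4 FPKM in HC and 6.83 FPKM in control buds at 3 days, and 40.9 FPKM in HC and 36.9 FPKM in control buds at 7 days. The 3-day differences ranged from 2.03 to 7.29 log2 units with a median of 2.82, against a median of 0.01 over the 5729 genes. The 7-day differences ranged from -0.49 to 0.50 with a median of 0.05, against 0.10 over the 5729 genes. The members were also uneven within groups. Their median SD on the log2 scale was 0.77 in HC and 1.74 in control libraries at 3 days, and 0.54 in HC and 0.67 in control libraries at 7 days. Over the 5729 genes the same SD was 0.39 in HC and 0.60 in control libraries at 3 days, and 0.43 in HC and 0.55 in control libraries at 7 days. The widest of these spreads was that of the members in 3-day control buds. Values of 0 made up 7.22% of the members' 180 values in HC and 26.7% in control libraries at 3 days. At 7 days they made up 13.3% in HC and 17.2% in control libraries. Of the 48 values of 0 in 3-day control libraries, 26 were in the shallow replicate 2. Replicates 1, 3 and 4 held 8, 7 and 7. The rule also favours genes with low 3-day control values. Over the 5729 genes the shares were 1.4% in HC and 4.8% in control libraries at 3 days. At 7 days those shares were 1.5% in HC and 3.9% in control libraries.

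**Figure D1:**
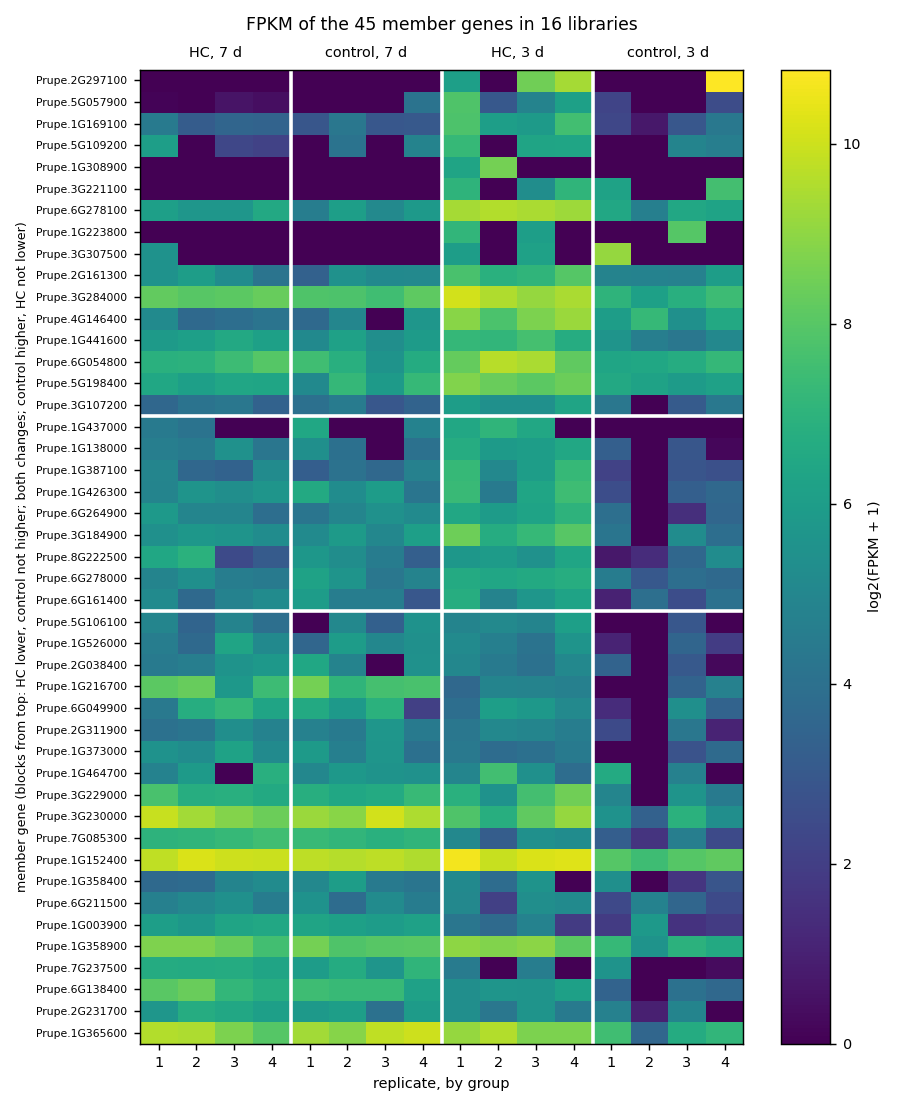
Each row is 1 of the 45 members and each column 1 library, coloured by log2(FPKM + 1). White lines separate the 4 groups, and the row blocks of the HC-lower course (16 members), both changes (9) and the control-higher course (20). For most members the columns of HC at 3 days are brighter than those of control at 3 days, where replicate 2 is dark for 26 members.

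At 3 days all 4 HC libraries lay above all 4 control libraries in 26 of the 45 members. Such a separation occurred in 7.75% of the 5729 genes, and since the rule used this contrast the count only describes the members. At 7 days, where the rule asked for close medians, 1 member separated in the same way, against 5.93% of the 5729 genes. It was Prupe.1G152400, the most abundant member, with 891, 1176, 1024 and 1002 FPKM in HC and 852, 783, 866 and 733 FPKM in control libraries at 7 days. At 3 days it had 1576, 978, 1176 and 1247 FPKM in HC and 246, 175, 253 and 294 FPKM in control libraries. Its HC libraries overlapped between the days, while every control library of 7 days lay above every control library of 3 days.

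The set was described as a transient rise. The 16 libraries are of days 3 and 7 only, so a rise from before spraying cannot be seen. A lower HC level at 7 than at 3 days, by the bound given below, held in some of the members only. The treatments can meet at 7 days because HC buds stand lower than at 3 days, because control buds stand higher, or through both. For each member the change between the days (7 minus 3 days, group medians of log2(FPKM + 1)) was taken in each treatment, with 1 log2 unit as the bound. By the rule itself the HC change is at least 1.5 below the control change in every member. In 16 members HC was at least 1 lower at 7 days and control less than 1 higher. In another 20 members control was at least 1 higher at 7 days and HC less than 1 lower. In 9 members both held, and in 0 members neither. These sets are called the HC-lower course, the control-higher course and the course with both changes. Over the 5729 genes these shares were 11.0%, 13.7% and 0.628%, with 74.7% meeting neither bound. The 3-day control libraries enter both the rule and the control change, so the group sizes are a description and no test.

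**Figure D2:**
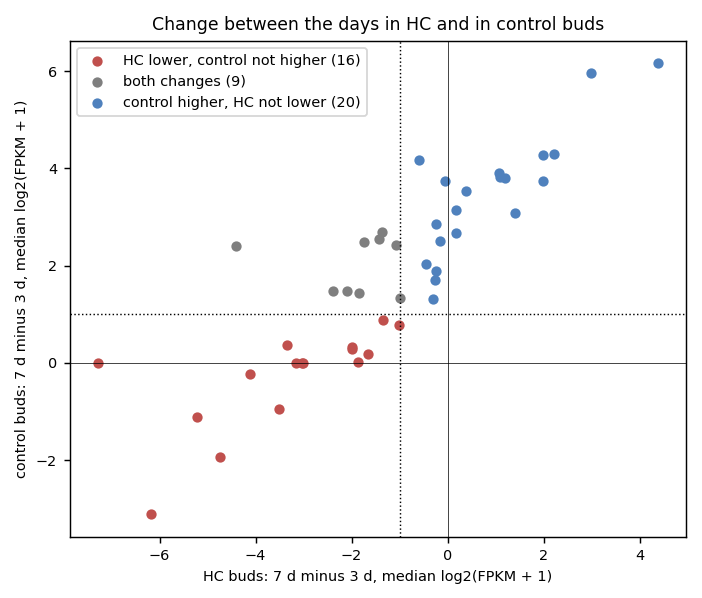
Each point is a member, with its change in HC buds (7 minus 3 days, x axis) and in control buds (y axis), as differences of group medians of log2(FPKM + 1). Dotted lines mark -1 for HC and 1 for control. The 16 red points (HC-lower course) lie left of and below the lines, the 20 blue points (control-higher course) right of and above them, and the 9 grey points meet both bounds.

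In the 16 members of the HC-lower course the HC level was lower at 7 days than at 3 days without a higher control level. In 3 of them, Prupe.3G221100, Prupe.4G146400 and Prupe.5G057900, the control median was also at least 1 lower at 7 days, by a change of -3.11, -1.93 and -1.11. Over the 16 members the HC change ranged from -7.29 to -1.02 (median -3.10) and the control change from -3.11 to 0.88 (median 0.00). The HC median at 3 days was above the control median at 7 days by 1.52 or more in each of the 16. The 7-day condition and the bound on the HC change together require it to be above. In 10 of them the 3-day HC libraries all lay above the 3-day control libraries. Prupe.5G057900 had the largest 3-day difference among these 10, 4.38. It had 227, 7.01, 27.3 and 70.1 FPKM in HC libraries at 3 days, against 3.66, 0, 0 and 4.74 FPKM in control libraries. At 7 days it had 0.07, 0, 0.47 and 0.34 FPKM in HC libraries, against 0, 0, 0 and 16.4 FPKM in control libraries. In estimated reads, HC replicates 1 and 2 of 3 days held 3076 and 37.9, and the HC libraries of 7 days no more than 1.01 each. The gene was close to 0 in 7 of the 8 libraries of 7 days, and control replicate 4 was the one that was not.

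Prupe.1G169100 came next among the separated members, with a 3-day difference of 4.21. It had 222, 67.0, 57.8 and 187 FPKM in HC libraries at 3 days, against 3.96, 0.64, 6.57 and 19.0 FPKM in control libraries. Its 7-day values were 20.3, 8.01, 10.4 and 9.76 FPKM in HC libraries, against 6.45, 18.5, 6.68 and 7.09 FPKM in control libraries. Its groups overlapped at 7 days and lay apart at 3 days, with HC replicates 1 and 4 the highest.

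Several abundant members shared this course. Prupe.6G278100 had 665, 768, 704 and 606 FPKM in HC libraries at 3 days, against 88.4, 24.6, 88.2 and 77.3 FPKM in control libraries. By 7 days there were 68.2, 51.0, 50.2 and 90.7 FPKM in HC libraries, against 22.9, 66.0, 33.0 and 54.6 FPKM in control libraries. The HC libraries of 3 days stood in a narrow band far above the other 12 libraries, which all lay between 22.9 and 90.7 FPKM. Prupe.3G284000 averaged 767 ± 223 FPKM in HC and 121 ± 41.2 FPKM in control buds at 3 days, and 285 ± 29.0 FPKM in HC and 228 ± 42.2 FPKM in control buds at 7 days (SD, n = 4 each). Prupe.6G054800 averaged 528 ± 269 FPKM in HC and 105 ± 30.9 FPKM in control buds at 3 days, and 165 ± 61.6 FPKM in HC and 110 ± 54.9 FPKM in control buds at 7 days. It differed within the treated trees, with 814 and 699 FPKM in HC replicates 2 and 3 and 305 and 292 FPKM in HC replicates 1 and 4 of 3 days.

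Prupe.4G146400 stood lower at 7 days in both treatments. It averaged 420 ± 153 FPKM in HC and 88.0 ± 48.1 FPKM in control buds at 3 days, and 19.6 ± 10.6 FPKM in HC and 23.5 ± 22.3 FPKM in control buds at 7 days. Prupe.5G198400 averaged 343 ± 69.1 FPKM in HC and 75.3 ± 13.4 FPKM in control buds at 3 days. At 7 days it averaged 79.9 ± 8.22 FPKM in HC and 97.9 ± 59.6 FPKM in control buds. Its 7-day control libraries ranged from 34.7 to 152 FPKM. Prupe.2G161300 and Prupe.1G441600 were at 179 ± 64.1 and 147 ± 39.9 FPKM in HC and 36.3 ± 19.2 and 30.6 ± 12.7 FPKM in control buds at 3 days. At 7 days they had 41.2 ± 19.6 and 72.1 ± 14.2 FPKM in HC and 30.0 ± 14.6 and 51.4 ± 17.8 FPKM in control buds.

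Not every member of this course was well measured. Prupe.2G297100, Prupe.1G308900, Prupe.3G221100, Prupe.1G223800 and Prupe.3G307500 were listed at 0 in 10 or more libraries and belong here. Prupe.2G297100 has the largest 3-day difference of all members, 7.29, from 68.0, 0, 352 and 651 FPKM in HC libraries and 0, 0, 0 and 1815 FPKM in control libraries at 3 days. Its highest library was thus a control, and its mean was 268 FPKM in HC and 454 FPKM in control buds. These FPKM stood for few reads: an estimated 1.64, 0, 11.6 and 5.67 reads in the HC libraries and 35.6 reads in that control library. Prupe.1G308900 had 79.5 and 377 FPKM in HC replicates 1 and 2 of 3 days and was listed at 0 in the other 14 libraries, on an estimated 3.46 and 6.54 reads. Prupe.1G223800 and Prupe.3G307500 likewise had their highest value in a control library of 3 days, at 252 and 555 FPKM. With 4 libraries a group median follows the middle values, so these genes met the rule although, in 4 of the 5, 1 control library exceeded every HC library.

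**Figure D3:**
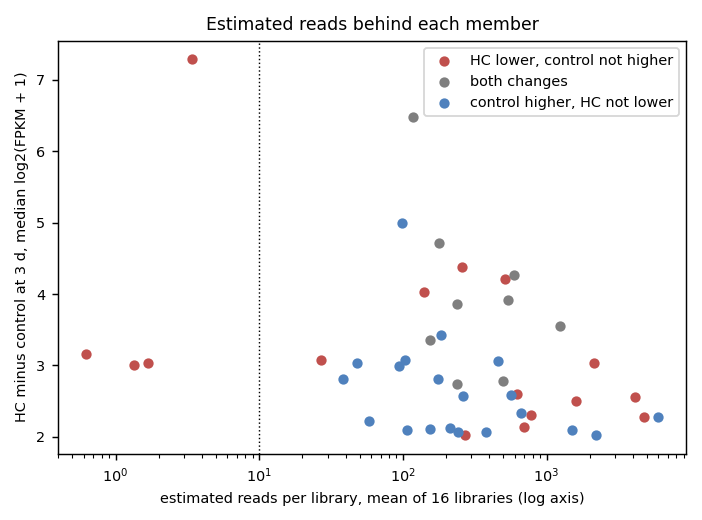
Each point is a member, with its estimated reads per library (mean of 16 libraries, log axis) and its 3-day difference of medians on the log2(FPKM + 1) scale. Left of the dotted line at 10 reads lie 4 members, all red for the HC-lower course, among them the highest point at 7.29.

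Of the 45 members, 4 had fewer than 10 estimated reads per library on average. The other 41 had from 27.0 to 5950 (median 261), and their median 3-day difference was 2.79. All 26 members with separated libraries at 3 days were among these 41. Without the 4 genes, the HC-lower course held 12 members.

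The 9 members with both changes had 3-day differences from 2.74 to 6.48. In 8 of them the 3-day HC libraries all lay above the 3-day control libraries. Prupe.1G138000 had the largest difference of these 8, 4.72. It had 104, 58.6, 64.8 and 87.9 FPKM in HC libraries at 3 days, against 8.70, 0, 6.48 and 0.13 FPKM in control libraries. The 7-day libraries held 23.7, 20.1, 43.1 and 17.8 FPKM in HC libraries, against 41.0, 14.8, 0 and 15.5 FPKM in control libraries. The 7-day libraries of both treatments lay between the treatments' 3-day levels, apart from control replicate 3 at 0.

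Prupe.1G387100 followed with a 3-day difference of 4.26. It had 152, 32.2, 64.4 and 153 FPKM in HC libraries at 3 days, against 3.38, 0, 6.17 and 5.23 FPKM in control libraries. At 7 days the values were 29.3, 11.2, 9.60 and 36.3 FPKM in HC libraries, against 8.46, 15.7, 11.8 and 25.8 FPKM in control libraries. Here too the 7-day libraries overlapped and stood above every 3-day control library.

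Prupe.3G184900, the most abundant of the 9, averaged 213 ± 108 FPKM in HC and 17.5 ± 15.7 FPKM in control buds at 3 days, and 44.9 ± 6.53 FPKM in HC and 48.4 ± 17.6 FPKM in control buds at 7 days. Prupe.6G264900 averaged 88.1 ± 28.4 FPKM in HC and 6.82 ± 7.08 FPKM in control buds at 3 days, and 32.5 ± 17.7 FPKM in HC and 31.4 ± 10.9 FPKM in control buds at 7 days. Prupe.1G426300 had a wide HC range at 3 days, from 21.4 FPKM in replicate 2 to 176 FPKM in replicate 4, against 0 to 11.8 FPKM in control libraries. At 7 days it had 28.3 to 48.7 FPKM in HC and 17.6 to 94.4 FPKM in control libraries.

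Prupe.1G437000 was the exception among the 9. It was listed at 0 in all 4 control libraries of 3 days, and had 87.8, 134, 89.4 and 0 FPKM in HC libraries. Its 7-day values were 20.3, 16.6, 0 and 0 FPKM in HC and 87.1, 0, 0 and 27.0 FPKM in control libraries. Its membership was lost when any of 8 libraries was left out, as was that of Prupe.1G358400 and Prupe.1G365600, the most of any member.

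**Figure D4:**
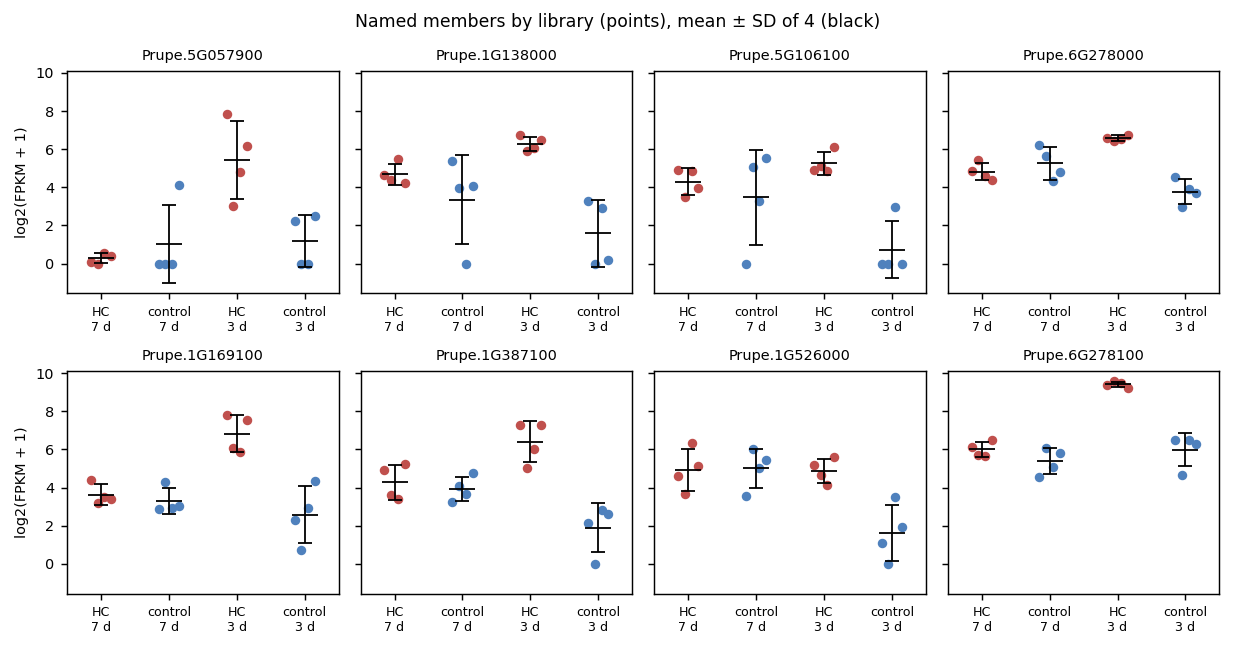
Columns from left show the pair of members named first for the HC-lower course, both changes and the control-higher course, then the neighbours Prupe.6G278000 and Prupe.6G278100. Points are the libraries of each group on the log2(FPKM + 1) scale, with mean and SD of 4 in black (HC red, control blue). In each panel the 4 HC points of 3 days lie above the 4 control points of 3 days.

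The 20 members of the control-higher course had no HC median at least 1 log2 unit lower at 7 days, and in 9 of them the HC median was itself at least 1 higher. Their HC change ranged from -0.60 to 4.39 (median 0.28) and their control change from 1.30 to 6.16 (median 3.64). The typical member had 32.4 FPKM in HC and 6.05 FPKM in control buds at 3 days, and 85.5 FPKM in HC and 73.7 FPKM in control buds at 7 days (medians of group medians). Set against 7-day control buds, the 3-day HC median was within 0.5 in 6 of the 20, more than 0.5 lower in 10 and more than 0.5 higher in 4.

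In 11 of these 20 the HC change was under 1. Their HC median of 3 days minus the control median of 7 days ranged from -0.64 to 0.83 log2 units. The 7-day condition and the bounds on the HC change limit this range in advance, so it only describes these members. Prupe.5G106100 had the largest 3-day difference, 5.0. It had 28.8, 33.5, 28.2 and 68.8 FPKM in HC libraries at 3 days, against 0, 0, 6.73 and 0 FPKM in control libraries. By 7 days there were 29.3, 10.2, 27.9 and 14.4 FPKM in HC libraries, against 0, 32.1, 8.86 and 45.3 FPKM in control libraries. The control libraries of 7 days overlapped the HC libraries and held both the lowest and the highest value.

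Prupe.1G526000 had 35.3, 24.3, 16.4 and 47.0 FPKM in HC libraries at 3 days, against 1.12, 0, 10.5 and 2.76 FPKM in control libraries. The 7-day libraries held 23.1, 11.9, 78.7 and 34.3 FPKM in HC libraries, against 11.0, 63.1, 31.4 and 42.5 FPKM in control libraries. Every group but 3-day control overlapped with the other groups, and the 3-day control libraries lay below all 12 others. Prupe.1G358900 averaged 425 ± 107 FPKM in HC and 104 ± 45.5 FPKM in control buds at 3 days, and 343 ± 115 FPKM in HC and 284 ± 63.2 FPKM in control buds at 7 days.

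In the other 9 of the 20 the HC median was 1.08 to 4.39 higher at 7 days, and the control median by more. By the 7-day condition and their HC change, these 9 had to have a 3-day HC median below the 7-day control median. The former minus the latter ranged from -4.07 to -0.79 log2 units in these 9. For 5 of them, Prupe.1G216700, Prupe.7G085300, Prupe.1G003900, Prupe.7G237500 and Prupe.6G138400, every 7-day control library exceeded every 3-day HC library. These were the only such members among all 45, while 826 of the 5729 genes (14.4%) were separated in this way. Prupe.7G085300 had 128, 133, 151 and 180 FPKM in HC and 157, 138, 117 and 135 FPKM in control libraries at 7 days. At 3 days it had 32.7, 8.26, 42.0 and 37.7 FPKM in HC and 8.43, 2.05, 23.6 and 4.38 FPKM in control libraries, and the groups overlapped. Prupe.6G138400 kept its groups apart at 3 days, with 39.3, 49.0, 47.1 and 69.1 FPKM in HC and 9.83, 0, 15.6 and 11.7 FPKM in control libraries, and averaged 210 ± 103 FPKM in HC and 139 ± 45.7 FPKM in control buds at 7 days.

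Prupe.3G230000 had the highest level at 7 days among these 9, with 601 ± 278 FPKM in HC and 713 ± 267 FPKM in control buds. At 3 days it averaged 295 ± 187 FPKM in HC and 53.3 ± 46.7 FPKM in control buds. Prupe.7G237500 was low in most 3-day libraries, with 21.7, 0, 22.9 and 0 FPKM in HC and 46.2, 0, 0 and 0.25 FPKM in control libraries. At 7 days the values were 78.7 to 101 FPKM in HC and 48.7 to 136 FPKM in control libraries. Its highest 3-day library was a control, so its membership rests on the group medians. The same held for Prupe.1G003900, with 57.7 FPKM in control replicate 2 and at most 26.8 FPKM in HC libraries at 3 days.

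Members lay on all 8 chromosomes named in the identifiers (the digit before G). Chromosome 1 held 17 of the 45 (37.8%), against 23.1% of the 5729 genes, and chromosome 6 held 8 (17.8%, against 14.2%). Chromosomes 4 and 8 held 1 each. A single pair had adjacent identifiers, Prupe.6G278000 and Prupe.6G278100. Prupe.6G278000 had 96.6, 84.1, 93.2 and 106 FPKM in HC libraries at 3 days, against 22.2, 6.88, 13.9 and 12 FPKM in control libraries. At 7 days it had 28.1, 41.4, 23.2 and 20.2 FPKM in HC libraries, against 74.4, 48.2, 18.9 and 27.4 FPKM in control libraries. Like its neighbour it had a narrow band of 3-day HC values above all other libraries of both treatments. The neighbours differed in control buds, where the median change from 3 to 7 days was 1.43 for Prupe.6G278000 and -0.94 for Prupe.6G278100. If the neighbours are copies, reads shared between them make their separate levels uncertain. Prupe.1G358400 and Prupe.1G358900 were 5 identifiers apart, and Prupe.3G229000 and Prupe.3G230000 were 10 apart.

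Membership depended on single libraries. Leaving out 1 of the 16 libraries kept between 31 and 42 of the 45 genes, and 8 genes were members in all 16 cases. These 8 were Prupe.2G297100, Prupe.6G264900, Prupe.3G184900, Prupe.2G161300, Prupe.3G229000, Prupe.3G230000, Prupe.3G284000 and Prupe.1G152400. The first of them is the gene on few reads described above. Just inside the 3-day threshold were Prupe.3G107200 (2.03) and Prupe.1G365600 (2.03), and just outside were Prupe.1G446700 (2.00, rounded up from below) and Prupe.1G175800 (1.98). Prupe.3G107200 averaged 56.9 ± 17.9 FPKM in HC and 11.4 ± 9.25 FPKM in control buds at 3 days, and 14 ± 4.27 FPKM in HC and 13.3 ± 6.56 FPKM in control buds at 7 days. Prupe.1G365600 averaged 536 ± 160 FPKM in HC and 107 ± 72.3 FPKM in control buds at 3 days. The gene just outside, Prupe.1G446700, averaged 134 ± 33.9 FPKM in HC and 40.6 ± 15 FPKM in control buds at 3 days, and 81.3 ± 10.5 FPKM in HC and 58.3 ± 9.04 FPKM in control buds at 7 days.

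A fit over all 16596 genes that reached 1 FPKM in 4 or more of the libraries (limma on log2(FPKM + 1), Benjamini-Hochberg adjusted p under 0.05) shows how many members pass where all genes compete. Of the 45 members 43 entered this fit. At 3 days 22 of them were called higher in HC buds and 0 lower, against 1.08% of all genes tested called higher, 0.735% lower and 1.81% either way, but the rule chose them by this contrast. At 7 days 0 were called, against 0.325% of all genes called higher, 0.121% lower and 0.446% either way, but the rule's 7-day condition favours this. The difference between the effects was called for 4 members, all lower at 7 days. Over all genes 0.133% were called lower, 0.356% higher and 0.488% either way. The rule favours this direction too, though it bounds medians and the fit compares means. Between the days in HC buds 9 members were called lower at 7 days and 2 higher, against 2.62% and 3.62% of all genes (6.23% either way). The 9 comprised 8 of the 14 tested members of the HC-lower course and 1 of the 9 with both changes. Between the days in control buds 16 were called higher at 7 days and 0 lower, against 3.41% of all genes called higher, 3.95% lower and 7.36% either way. Of these 16, 13 were among the 20 of the control-higher course. The between-day contrasts use the libraries of the rule and are counted here only to describe the courses. With only the 8 HC libraries fitted, 16 members were called lower and 7 higher, while 10.4% of all genes were called either way. With only the 8 control libraries fitted, 7 were called higher and 0 lower, while 3.27% of all genes were called either way.

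The 7-day HC libraries all lay below the 3-day HC libraries in 14 of the 45 members, against 861 of the 5729 genes (15.0%). They all lay above them in 7 of the 45, against 898 of the 5729 (15.7%), which is about the same share. The 7-day control libraries all lay above the 3-day control libraries in 17 of the 45 members, against 661 of the 5729 genes (11.5%). The 3-day HC libraries all lay above the 7-day control libraries in 15 of the 45 members, against 1077 of the 5729 genes (18.8%). The rule used the medians of all these groups, so the counts only describe the members.

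In the authors' deposited table for 3 days all 45 members are listed, 28 with an adjusted p under 0.05 and higher in HC, where 4.28% of its genes are, and 0 lower, where 4.53% are. The log2 fold changes in the authors' deposited table of 3 days ranged from -0.69 to 5.75 with a median of 2.33, and 3 members were below 0. The authors' deposited table for 7 days lists 41 members, 34 of them with a log2 fold change within 0.5 of 0. There, 0 members are higher with an adjusted p under 0.05, where 4.73% of its genes are, and 1 is lower, where 3.62% are. That member is Prupe.5G057900, with a log2 fold change of -2.13 and an adjusted p of 1.2e-05 in the authors' deposited table, and control replicate 4 with 16.4 FPKM was its one 7-day control library above 0. These tables rest on the same libraries.

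Across the 16 libraries the members varied in how closely they followed their mean profile. Each member is part of that mean, and all were chosen by the same pattern of medians. The values below therefore do not measure how alike the members are beside other genes. The Pearson correlation of a member with the mean standardised profile of all 45 ranged from 0.14 to 0.94 with a median of 0.65, as a description over libraries of unequal depth. Outside the members, Prupe.8G018300 (0.97) and Prupe.5G011400 (0.93) had the highest correlation with that profile. Prupe.8G018300 averaged 177 ± 16.8 FPKM in HC and 55.8 ± 19.6 FPKM in control buds at 3 days, and 123 ± 20.0 FPKM in HC and 95.0 ± 2.68 FPKM in control buds at 7 days. Prupe.5G011400 averaged 895 ± 229 FPKM in HC and 250 ± 37.9 FPKM in control buds at 3 days, and 693 ± 26.9 FPKM in HC and 645 ± 105 FPKM in control buds at 7 days. Their 3-day differences of 1.61 and 1.75 fell short of the threshold of 2.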

How the data were processed

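Expression was measured in 16 bud libraries, 4 per group, made with the Illumina TruSeq mRNA protocol per the labels' protocols. The tools named, per the submitters' processing notes, are RSEM 1.2.31, STAR 2.5.2a and Trimmomatic. The genome build is not given in the sources used here. Expression values in the deposited matrix are FPKM, as far as they show: they are not whole, and each library sums to between 1052238 and 1209106. The authors also deposited, per day, a log2 fold change, an adjusted p-value and a signal per treatment; how these were made is not stated.

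The FPKM were taken as deposited, with a pseudocount of 1 on the log2 scale. The fit over all genes used limma 3.58.1 (R 4.3.3, statmod 1.5.0) with trend and robust settings and 1 mean per group. Reads per gene were estimated from FPKM times a length-like factor, the authors' deposited signals over a fitted weighted sum of the libraries' FPKM (18510 genes with a factor from both days). In each library 79.7% to 95.4% of low values then lay within 0.2 of a whole number of reads, against 40% for values spread evenly. These estimates serve only as depth, for 1 alternative fit and to mark members on few reads.

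The members, the courses and the genes named were chosen with earlier results of these data known. The naming rule took the 2 highest 3-day differences per course among members with separated libraries, those next to the threshold, adjacent identifiers, members lost in most leave-outs and the 2 genes most like the mean profile. Every other gene named was chosen after its values were seen. Product lists and cell type markers could not be used without gene names. Alternatives are listed in the closing section. Per the labels a replicate is a tree. The p-values rest on the spread between libraries, which holds differences between trees and between libraries of unequal depth. The main fit took all libraries as independent, although the trees of each treatment gave buds at both days.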

Additional observations from a re-analysis of the deposited data

Results flagged for a closer look

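Single libraries lay apart from the other 3 of their group in 6 of 64 groups of 4, on the log2 scale. The 64 were 16 named genes in 4 groups each. Chance flags about 1 group in 20 where values are spread without ties. That rate does not apply where the other libraries are all listed at 0, as for Prupe.5G057900 and Prupe.5G106100 below. Nor does it apply to genes named for their values, so no excess of flags can be read from these counts. In control buds at 7 days, Prupe.5G057900 had 16.4 FPKM in replicate 4 and was listed at 0 in the other 3, Prupe.1G169100 had 18.5 FPKM in replicate 2 and 6.45 to 7.09 FPKM in the others, and Prupe.1G175800 had 28.5 FPKM in replicate 1 and 86.2 to 102 FPKM in the others. In control buds at 3 days, Prupe.5G106100 had 6.73 FPKM in replicate 3 and was listed at 0 in the others, and Prupe.6G278100 had 24.6 FPKM in replicate 2 and 77.3 to 88.4 FPKM in the others. In HC buds at 3 days, Prupe.1G437000 was listed at 0 in replicate 4 and had 87.8 to 134 FPKM in the others. The HC effect differed between the days for 4 members (limma, adjusted p under 0.05), which the choice of members favours.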

How the results depend on the processing

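The number of members depended on the rule's settings. It was 74 with group means in place of medians, and only 23 of these 74 were among the 45 members. It was 93 with a mean of 10 or more FPKM, 20 with 50 or more, and 35 to 67 when 1 library was left out. Counts of called members that moved by over 1.5 times are given with the share of all genes called. For the difference of effects (4, 0.488%) they were 9 (0.753%) with a pseudocount of 5 and 12 (1.37%) with quality weights. For 7 against 3 days in HC buds (11, 6.23%) they were 17 (8.16%) with a pseudocount of 5, 21 (17.9%) with quality weights, 24 (17.7%) with voom on estimated reads and 23 (10.4%) with only the HC libraries. In control buds (16, 7.36%) the count was 7 (3.27%) with only the control libraries. Leaving out 1 library gave 14 to 24 at 3 days (14 without HC replicate 1 of 3 days), 2 to 7 for the difference (2 without HC replicate 1 or 3 of either day or HC replicate 4 of 3 days, 7 without control replicate 2 of 3 days), 9 to 18 in HC buds (18 without control replicate 2 of 3 days) and 14 to 18 in control buds. The cause was not tested. The courses held 12 to 17 (HC lower), 19 to 23 (control higher), 6 to 11 (both) and 0 to 4 (neither) members with 1 library left out. With a bound of 1.5 in place of 1, 2 members had both changes and 4 neither; with group means or a pseudocount of 5, 1 had neither. With replicate number as a block the counts were 22 at 3 days, and with a replicate block inside each treatment 4 for the difference, 10 in HC and 16 in control buds. The labels name 4 trees per treatment for both days but do not say whether a number is the same tree at both. Deviations of same-numbered libraries correlated with r from -0.11 to 0.0831 over 24 pairs. In 7 of these 24 pairs the own number was best, where chance among 4 libraries gives about 1 pair in 4. Among the 7 were all 4 pairs of HC with control at 3 days (r from 0.037 to 0.0831), which are different trees. The minimum of 10 estimated reads for membership, which left 41 members, was chosen after seeing the data. Depth limits the low values: 1 read in the shallowest library is worth more FPKM than in the deepest, and an FPKM of 0 says only that the gene was listed at 0.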
